A study of Drosophila melanogaster with 3 samples.

Results

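Mitochondrial ribosomal protein genes encode the proteins of the ribosome that works inside the mitochondrion. Here they were taken as the protein-coding genes of the Ensembl annotation whose name starts with mRpL or mRpS, which gave 73 of 13945 protein-coding genes. Of these, 47 are named for the large subunit (mRpL) and 26 for the small subunit (mRpS). The question was where the CG1529 protein sits on chromatin at these genes. Chromatin was immunoprecipitated from 0 to 14 h Drosophila melanogaster embryos, males and females pooled, of a transgenic line in which GFP is fused to the C-terminal end of CG1529, and the peak lists are used here. The single group holds 3 libraries, numbered as biological replicates 1, 2 and 3, with no second condition. The antibody label names CG1529, a gene predicted to encode a zinc finger protein, whereas the free text labels the same libraries input controls. The peak lists were made from each library against a separate control, so the libraries were read as immunoprecipitations. The whole embryo holds many cell types, so a peak cannot be placed in any one of them. No sequencing depth in reads is known from peak lists.

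All proteins of the mitochondrial ribosome are encoded in the nucleus, made in the cytoplasm and imported into the mitochondrion. There they join ribosomal RNA from the mitochondrial genome and translate the few proteins that this genome encodes, which are subunits of the respiratory chain and of ATP synthase. The genes are therefore housekeeping genes, active in all tissues, and are scattered over the chromosomes.

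The joint list of the study, called the optimal list, was cut by the authors at a threshold of reproducibility. Its 3905 distinct peaks are the same as the 3905 strongest of the list made from the 3 libraries pooled. A peak in it need therefore not be found in every library. A gene was called as having a promoter peak where a summit, the highest point of a peak, lay within 500 bp of one of its transcription start sites (TSSs). By this rule 12 of 73 mitochondrial ribosomal protein genes had a promoter peak in the optimal list (16.4%, exact 95% interval 8.79 to 27.0), against 13.3% of protein-coding genes. The share of these genes was near that background, and the other 61 had none. The 12 genes were mRpS23, mRpS10, mRpS2, mRpS6, mRpS26 and mRpS7 of the small subunit and mRpL41, mRpL23, mRpL24, mRpL20, mRpL37 and mRpL11 of the large subunit. Of these 12, 11 had promoters shared by 2 genes transcribed away from each other (91.7%), against 52.6% of protein-coding genes with a promoter peak. Such promoters were common in the whole family, also at 42 of the 61 members without a peak (68.9%).

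The bases under 6 of the 7 strongest of these summits are shown because all of them hold runs of A and T. The window of mRpL41 is not shown. Each line gives the bases within 50 bp of the summit of the optimal list, from the plus strand of the dm6 assembly as held by RefSeq. Capitals mark runs of at least 8 bases made only of A and T. The windows are those of mRpS23 (chr2L:13835409-13835509), mRpS10 (chr3R:15229494-15229594), mRpL23 (chr3L:2373573-2373673), mRpL24 (chr2L:4945447-4945547), mRpL20 (chr3L:13018053-13018153) and mRpS2 (chr2L:4850524-4850624).
mRpS23: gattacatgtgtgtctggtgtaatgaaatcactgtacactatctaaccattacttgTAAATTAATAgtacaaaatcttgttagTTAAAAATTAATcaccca
mRpS10: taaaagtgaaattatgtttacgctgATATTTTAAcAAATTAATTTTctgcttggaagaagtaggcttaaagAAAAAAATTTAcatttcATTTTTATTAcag
mRpL23: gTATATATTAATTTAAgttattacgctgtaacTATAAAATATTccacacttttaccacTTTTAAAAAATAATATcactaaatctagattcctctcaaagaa
mRpL24: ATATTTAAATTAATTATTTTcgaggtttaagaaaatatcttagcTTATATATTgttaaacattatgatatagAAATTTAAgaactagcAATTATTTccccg
mRpL20: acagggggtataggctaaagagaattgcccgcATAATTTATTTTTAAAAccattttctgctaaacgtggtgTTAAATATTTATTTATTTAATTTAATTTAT
mRpS2: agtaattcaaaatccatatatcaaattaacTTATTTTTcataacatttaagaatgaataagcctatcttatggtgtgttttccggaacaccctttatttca

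The number of such runs in these 6 windows was 1 at mRpS2, 2 at mRpS23 and mRpL20, 3 at mRpL23 and 4 at mRpS10 and mRpL24. The longest was the 30 bases of A and T that end the mRpL20 window. All 12 windows held at least 1 run, against 76.3% of the windows at all 1627 promoter peaks of the optimal list (1241 windows). Of windows of the same length centred 150 bp upstream of the TSS of each protein-coding gene, 70.3% held one.

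Most mitochondrial ribosomal protein genes share their promoter region with a neighbour. A gene was counted as part of a divergent pair where a TSS of another gene on the opposite strand lay upstream of one of its own TSSs, within 500 bp. By this count 53 of 73 mitochondrial ribosomal protein genes were in a divergent pair (72.6%, exact interval 60.9 to 82.4), against 29.6% of protein-coding genes. The share was 72.3% among mRpL genes and 73.1% among mRpS genes. In all 53 pairs the nearest partner was a gene outside the family, and only the nearest was checked. Members are 73 of 13945 protein-coding genes, so this absence of pairs between members is not read as a trait of the family.

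Set beside genes of the same arrangement, the shares of these genes with a peak were slightly below those of protein-coding genes, within the counting intervals. Among members in divergent pairs 11 of 53 had a promoter peak in the optimal list (20.8%, exact interval 10.8 to 34.1), against 23.5% of protein-coding genes in divergent pairs. Among members outside such pairs 1 of 20 had one (5.00%, exact interval 0.127 to 24.9), against 8.93% of protein-coding genes outside such pairs. The pairs within the members depend on the distance allowed. With TSSs no more than 250 bp apart, 4 of 25 paired members had a peak (16%), against 19.8% of paired protein-coding genes, and 8 of 48 other members did (16.7%), against 12% of other protein-coding genes. With 1000 bp, 12 of 58 paired members had one (20.7%), against 21.4%, and 0 of 15 others did, against 7.88%. That 0 allows a share of up to 20% by the limit of 3 counts, and the exact interval ends at 21.8%. A peak between 2 head-to-head TSSs counts for both genes, so the count for a gene in a pair also reflects its neighbour.

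**Figure D1:**
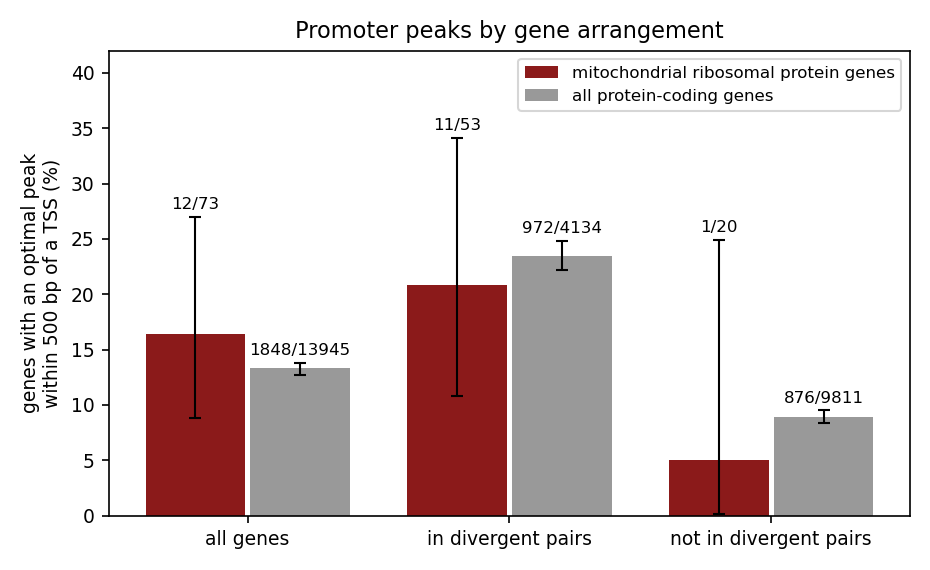
Share of genes with an optimal peak within 500 bp of a TSS, in percent, for mitochondrial ribosomal protein genes (dark bars) and all protein-coding genes (grey bars), over all genes and by gene arrangement. Bars are shares, error bars exact 95% binomial intervals for counting error, and the numbers above are counts; the intervals of the dark bars include the grey shares in all 3 pairs of bars.

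By subunit, 6 of 26 mRpS genes had a promoter peak (23.1%, exact interval 8.97 to 43.6) and 6 of 47 mRpL genes (12.8%, exact interval 4.83 to 25.7). These intervals overlap, and the difference was not tested. By chromosome arm, peaks were at 4 of 12 members on 2L (33.3%), against 14.1% of protein-coding genes there, and at 1 of 12 on 2R (8.33%), against 12.1%. On 3L they were at 4 of 17 members (23.5%), against 14.3%, and on 3R at 3 of 21 (14.3%), against 13.8%. On the X, 0 of 11 members had one, against 11.8% of protein-coding genes there. A count of 0 in 11 allows a share of up to 27.3% if 3 counts are taken as the limit, and the exact interval ends at 28.5%. The exact intervals of the members include the protein-coding share in all 5 cases.

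The small subunit held the strongest promoter peaks of the family. Signal below is the authors' value for each peak, which serves only to order peaks within a list, and rank 1 is the strongest peak of a list. The peak at mRpS23, whose product is a small subunit protein particular to mitochondria, had a signal of 1909 and rank 20 of the 3905 distinct optimal peaks (chr2L:13835301-13835639). It ranked 24, 20 and 22 in replicates 1, 2 and 3. All 3 libraries thus placed it among their strongest. Its summit was 387 bp upstream of the mRpS23 TSS and 105 bp upstream of that of CenG1A, a gene of the ArfGAP family, so it was nearer to the neighbour. Among the 12 genes this was the summit farthest from the TSS of the gene itself.

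The peak at mRpS10, which encodes a protein with a bacterial counterpart in the head of the small subunit, had a signal of 1890 and rank 22 (chr3R:15229351-15229720). It ranked 19, 22 and 24 in replicates 1, 2 and 3. The summit was 121 bp upstream of mRpS10 and 136 bp upstream of Art3, which encodes an arginine methyltransferase, almost midway in the 257 bp between the TSSs. At mRpS2, also a gene with a bacterial counterpart, the signal was 475 (rank 668, chr2L:4850438-4850665), with ranks of 605, 815 and 818. This summit was nearer to Mon1, a gene of endosome maturation, at 67 bp, than to mRpS2 at 155 bp.

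The remaining small subunit peaks were near the middle of the list. At mRpS6 (signal 275, rank 1728, chr3L:4364380-4364497) the ranks were 1700, 1353 and 2552 in replicates 1, 2 and 3. Its summit was 115 bp upstream of mRpS6 and 333 bp upstream of Cip4, which encodes an F-BAR protein of endocytosis. At mRpS26 (signal 268, rank 1808, chr3L:18106155-18106590) the ranks were 1504, 3361 and 1904, with the summit 206 bp from mRpS26 and 224 bp from CG13698. This peak was lowest in replicate 2. At mRpS7 (signal 241, rank 2141, chr2L:10386268-10386703) they were 1573, 1883 and 3433, with the summit 176 bp from mRpS7 and 224 bp from Cdk1, the kinase gene of mitotic entry. This one was lowest in replicate 3, where the summit was also displaced by 125 bp towards Cdk1.

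In the large subunit the strongest peak was at mRpL41, a protein particular to mitochondria, with a signal of 1760 and rank 28 (chr2R:15217581-15217932). It ranked 13, 41 and 37 in replicates 1, 2 and 3. Here the summit was 135 bp upstream of the TSS. It was the only one of the 12 promoters without a divergent partner within 500 bp. At mRpL23, whose bacterial counterpart lies at the exit of the peptide tunnel, the signal was 1106 (rank 107, chr3L:2373444-2373777), with ranks of 71, 162 and 112. This gene has 3 annotated TSSs, and the summit was 55 bp downstream of the nearest, in its annotated 5′ UTR. The other 11 summits of the family were in sequence outside any annotated gene, upstream of the TSS.

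The peak at mRpL24 had a signal of 612 (rank 411, chr2L:4945397-4945614) and ranks of 378, 415 and 492 in replicates 1, 2 and 3. Its summit was 82 bp from betaggt-I, the gene of a geranylgeranyl transferase subunit, and 136 bp from mRpL24. At mRpL20 the signal was 479 (rank 655, chr3L:13018013-13018279), the ranks were 706, 919 and 593, and the summit was 163 bp from Icmt, which encodes a methyltransferase of prenylated proteins, and 236 bp from mRpL20. Both peaks were thus nearer to the partner. They were also in the upper part of all 3 libraries.

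The 2 weakest were at mRpL37 and mRpL11, a gene whose bacterial counterpart binds at the site of the translation factors. At mRpL37 (signal 190, chr3R:10784137-10784572) the ranks were 2464, 5895 and 2401 in replicates 1, 2 and 3, and the summit was 263 bp upstream of mRpL37. At mRpL11 (signal 158, rank 3858, chr3R:14511497-14511932) they were 2455, 6674 and 6129, and the summit was 3 bp from a TSS of HtrA2, which encodes a mitochondrial protease, against 123 bp from mRpL11. The lowest signal in the optimal list is 157, so the mRpL11 peak was close to the edge of the list. Both peaks were lowest in replicate 2.

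**Figure D2:**
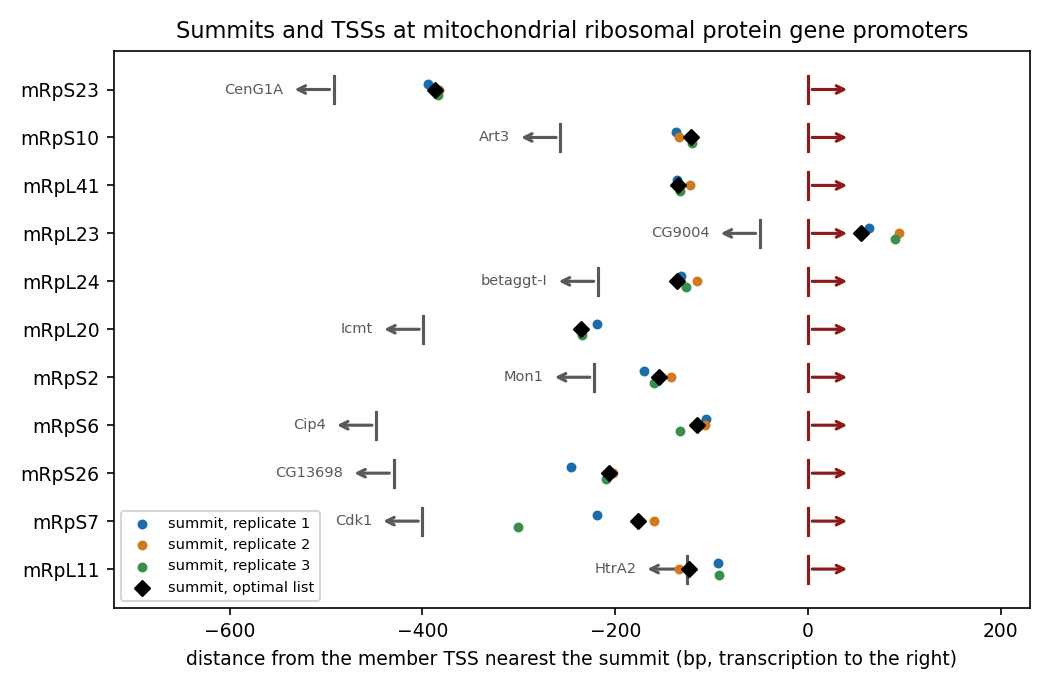
Map of 11 of the 12 promoters, without mRpL37, with distance in bp from the TSS of the mitochondrial ribosomal protein gene nearest the summit on the horizontal axis and the gene transcribed to the right. Dark red arrows are TSSs of these genes, grey arrows the nearest summit-side TSS of the divergent partner, black diamonds optimal summits and coloured points the summits of replicates 1 to 3; most summits lie between the arrows, and the mRpL23 summit lies 55 bp to the right of 0.

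Over the 11 divergent promoters the summit was upstream of the nearest partner TSS at 11 and upstream of both nearest TSSs at 10. The partner was nearer at 6 of the 11. Over all 12, the median position of the summit relative to the gene's own TSS was -145.5 bp, negative being upstream, with a range from -387 to 55 bp. A member TSS was the closest of all annotated TSSs at 6 of 12 peaks. The median spacing of the TSSs was 291 bp in the 11 pairs with a peak (24 to 492 bp) and 253 bp in the 42 pairs without (20 to 499 bp). These ranges overlap, and the difference was not tested.

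Summits were placed alike by the 3 libraries. The library summit was within 43 bp of the optimal summit for all 12 peaks in replicate 1 (median 15.5 bp) and within 39 bp in replicate 2 (median 13 bp). In replicate 3 the median was 4.5 bp, and mRpS7 was the farthest at 125 bp. The optimal list was made from the same libraries, so overlap with them is partly built in and is no independent support. Taking the 3921 strongest peaks of each library, the length of the optimal list, 12, 10 and 11 of the 12 peaks were overlapped in replicates 1, 2 and 3. In all 3 libraries together 10 of 12 were (83.3%), against 64.4% of all 1627 promoter peaks. The exceptions were mRpL37, outside the strongest in replicate 2, and mRpL11, outside them in replicates 2 and 3.

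**Figure D3:**
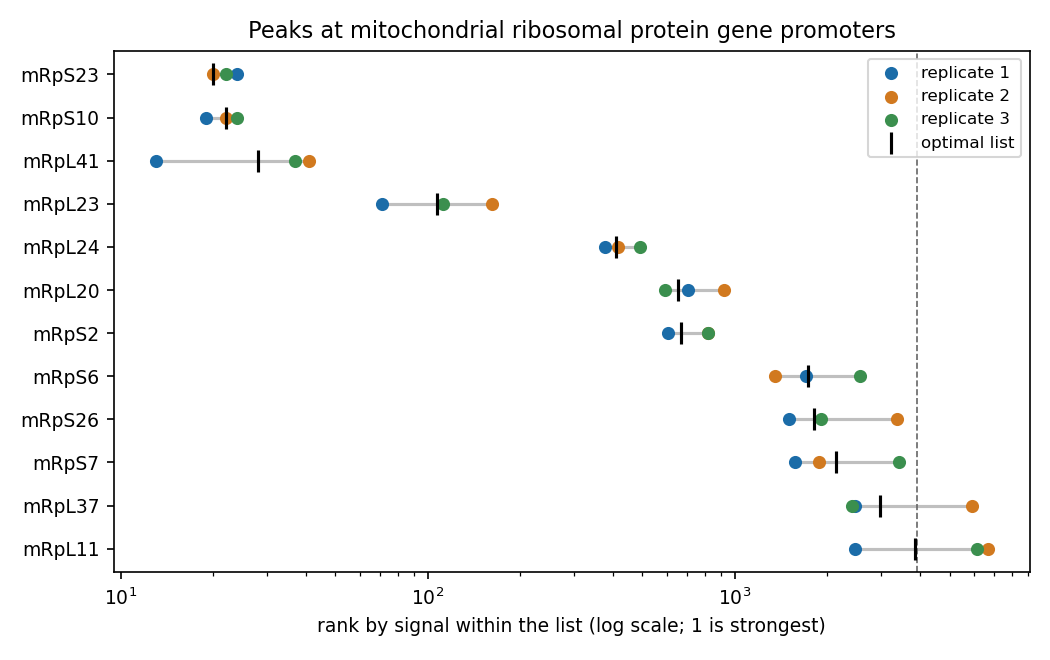
Rank by signal of the 12 promoter peaks within each library's own list (coloured points, log axis, 1 is strongest) and within the optimal list (black ticks); grey lines join the lowest and highest library rank, and the dashed line is rank 3921. The 3 strongest peaks rank 13 to 41 in every library, and the points for mRpL37 and mRpL11 cross the dashed line.

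The 12 peaks stood higher in the optimal list than promoter peaks in general. Their median rank was 661.5, against 1751 over all 1627 promoter peaks. Of the 12, 3 were among the strongest 100 peaks (25%), against 3.56% of promoter peaks, and 9 were among the strongest 1952 peaks (75%), against 55.1%. These are counts of 3 and 9 genes chosen as a family, and no test was made. Among the strongest 500 peaks of each library, 5 of 73 members had a promoter peak in every case (6.85%), against 2.45%, 2.34% and 2.35% of protein-coding genes in replicates 1, 2 and 3. Within divergent pairs the contrast was smaller. There 4 of 53 members had one in every library (7.55%), against 4.35%, 3.85% and 3.7% of protein-coding genes in such pairs.

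The count was also made in each library read separately. In replicate 1, 13 of 73 members had a promoter summit among the 3921 strongest peaks (17.8%), against 12.5% of protein-coding genes. In replicate 2 it was 15 (20.5%), against 14.2%, and in replicate 3 16 (21.9%), against 13.7%. The mean share was 20.1% ± 2.09 for members and 13.5% ± 0.919 for protein-coding genes (SD, n = 3 libraries). This SD is over 3 readings of the same genes and leaves out counting error. The exact intervals of the member shares were 9.84 to 28.5, 12 to 31.6 and 13.1 to 33.1 in replicates 1, 2 and 3. Each includes the protein-coding share of its library. Within divergent pairs the shares were 22.6% of members against 22.4% of protein-coding genes in replicate 1, 24.5% against 24.1% in replicate 2 and 28.3% against 23.8% in replicate 3. A promoter summit among the strongest peaks of all 3 libraries was found at 10 of 73 members (13.7%, exact interval 6.77 to 23.8), against 8.50% of protein-coding genes. All 10 were among the 12 of the optimal list, with mRpL37 and mRpL11 left out.

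A further 9 members had such a summit in some of the libraries without an optimal promoter peak, and they are named here after their values were seen. The share of protein-coding genes meeting the same rule is not given here, so this count is not read as a trait of the family. Both mRpS24, with ranks 2474 and 2100 in replicates 1 and 2 and no listed promoter peak in replicate 3, and mRpS17, with ranks 3015 and 3654 in replicates 2 and 3 and none in replicate 1, had it in 2. In 1 library each it was found at mRpS16, mRpS21, mRpS22, mRpL4, mRpL17, mRpL21 and mRpL44, at ranks from 2971 to 3711. No member in this group had it in all 3 libraries. In the list made from the pooled libraries, 4 of these came just below the 3905 peaks of the optimal list: mRpL17 at rank 3932, mRpS16 at 4020, mRpS22 at 4023 and mRpL4 at 4119. Lower in that list were mRpL21 at 5225 and mRpS21 at 5863. It held no promoter peak at mRpS24, mRpS17 or mRpL44.

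Further down, the libraries differed in how many members they listed. Each library's deposited list is relaxed, holding background beside peaks. Any listed summit at a promoter was found at 27 of 73 members in replicate 1 (37.0%), against 33.1% of protein-coding genes. In replicate 2 it was 54 (74.0%, exact interval 62.4 to 83.5), against 49.1%, and in replicate 3 40 (54.8%), against 44.9%. In divergent pairs the shares were 39.6% of members against 39.5% of protein-coding genes in replicate 1. They were 81.1% against 68.7% in replicate 2 and 62.3% against 61.6% in replicate 3. Replicate 2 thus listed the most promoters, both for members and for protein-coding genes as a whole. A listed promoter summit in all 3 libraries was present at 22 of 73 members (30.1%), against 22.6% of protein-coding genes. In 15 members there was none in any library, a count given without its share over protein-coding genes and so not read further.

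**Figure D4:**
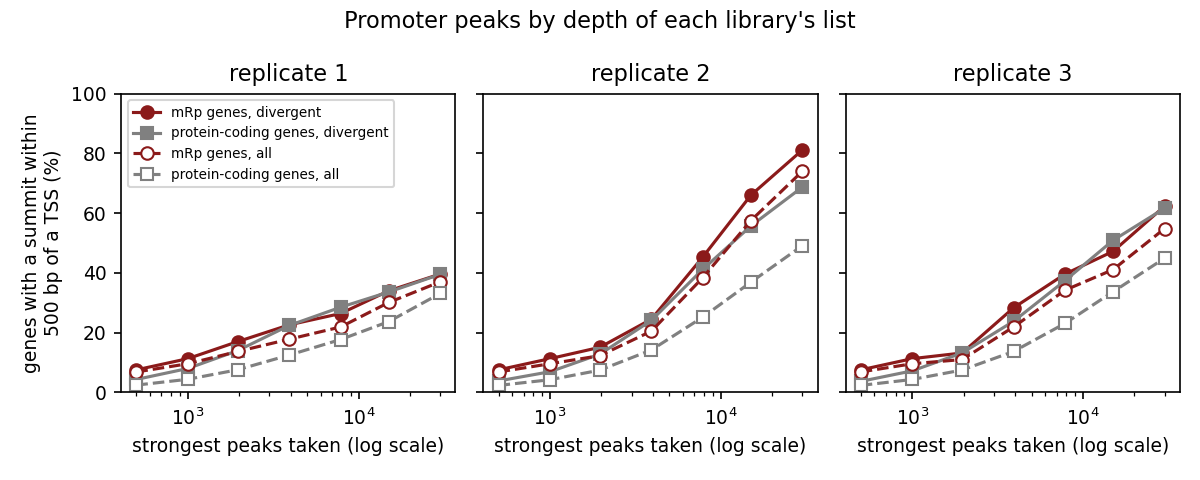
Share of genes with a summit within 500 bp of a TSS, in percent, against the number of strongest peaks taken from each library's list (log axis), 1 panel per replicate. Dark red circles are mitochondrial ribosomal protein genes and grey squares protein-coding genes, with filled symbols and solid lines for genes in divergent pairs and open symbols and dashed lines for all genes; at the full list replicate 2 reaches 74.0% of the 73 genes and replicate 1 37.0%.

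Peaks near but not at these genes were mostly at the promoters of other genes. A summit of the optimal list lay in the gene body or within 5 kb of it at 34 of 73 members (46.6%, exact interval 34.8 to 58.6), against 38.4% of protein-coding genes. Beside the 12 genes above this added 22 members with 25 peaks. No summit of these 25 was inside the body of the member, and 21 lay within 500 bp of a TSS of another gene. Of all 3905 distinct optimal peaks, which are not limited to those near a gene, 1627 were promoter peaks. Only 1 of the 73 members, mRpL23, had an optimal summit inside its body.

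The 22 were mRpL2, mRpL4, mRpL12, mRpL13, mRpL18, mRpL19, mRpL27, mRpL28, mRpL33, mRpL34, mRpL35, mRpL36, mRpL40, mRpL44, mRpL46, mRpL50, mRpL51, mRpS18B, mRpS22, mRpS30, mRpS31 and mRpS33. The strongest of their peaks, with a signal of 1009, lay 4751 bp upstream of mRpL19 and 184 bp from a tRNA gene. The next, with 833, lay 2756 bp upstream of mRpL33 in an intron of norpA, the phospholipase C gene of phototransduction. That of signal 810 near mRpS18B lay 35 bp from Pyroxd1, and that of 697 near mRpL46 lay 116 bp from PolD2, a DNA polymerase delta subunit gene. Genes of the cytoplasmic ribosome were the nearest TSS for 4 of the 25: RpL4 near mRpS22, RpL18 near mRpL50, RpL27A near mRpL27 and RpL35A near mRpL44. This count was made after the nearest genes were seen. Promoter peaks were common at cytoplasmic ribosomal protein genes in general, at 62 of 92 (67.4%). The share of all optimal peaks nearest to such genes is not given here, so the count is not read as a link between the families. The closest summit outside the 500 bp limit was 723 bp upstream of mRpL2 (signal 202), and at a limit of 1000 bp this gene alone would be added. The other 39 members had no optimal summit within 5 kb of the gene.

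The base composition at the 12 summits was poorer in G and C than at promoter peaks as a whole. Within 50 bp of the summit G+C was 26.2% ± 4.23 (SD, n = 12 peaks), against 33.9% ± 9.80 over all 1627 promoter peaks. It ranged from 20.8% at mRpL24 to 36.6% at mRpL37. Around the points 300 bp to either side it was 46.8% ± 6.75 (SD, n = 12) for these peaks and 44.0% ± 7.27 for all promoter peaks. The dip was seen at each of the 12: the smallest was at mRpS23 (28.7% at the summit, 31.2% away from it) and the largest at mRpL23 (22.8% and 54.0%). Over the stretch from 250 bp upstream to 50 bp downstream of the outermost TSS, G+C was 33.1% ± 4.18 in the 12 members with a peak, 36.5% ± 6.38 in the 61 without and 39.1% ± 7.73 in all protein-coding genes (SD over genes). No test was made of these differences.

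**Figure D5:**
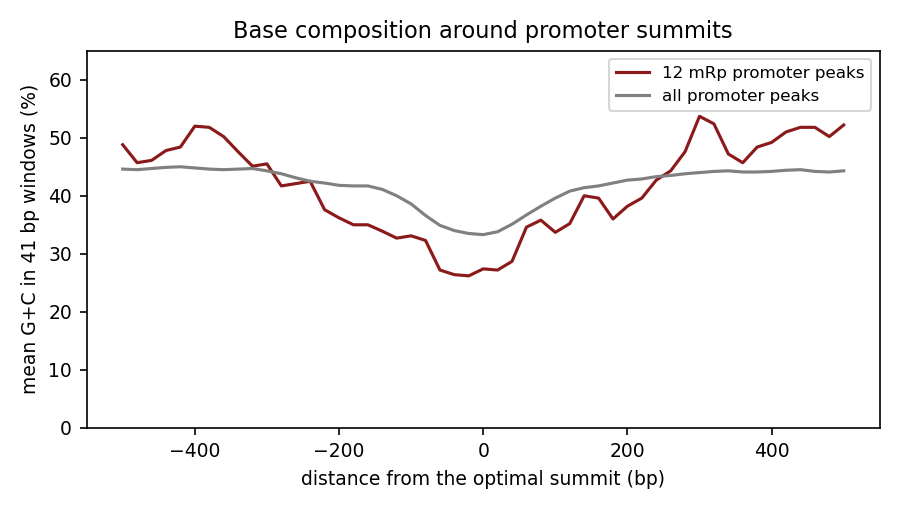
Mean G+C in windows of 41 bp, in percent, against distance from the optimal summit in bp, for the 12 promoter peaks of mitochondrial ribosomal protein genes (dark red) and all 1627 promoter peaks (grey). Both lines dip at the summit, to 27.4% and 33.3% in the central window; the dark red line averages few peaks and is therefore uneven.

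A set of 10 promoter and factor motifs was searched on both strands, none of them contained in another. Promoter elements were the TATA box, spelled TATAAA, the DNA replication-related element or DRE, spelled TATCGATA, and Ohler motifs 1 and 6 by name. Factor sites were the E-box, spelled CAGCTG, the homeodomain core spelled TAATTA, the site of GAGA factor spelled GAGAG, the core of the ewg site spelled GCGCATGC and the ETS core spelled CCGGAAG. The last was a word rich in A and T, spelled ATTTAAAA. Within 50 bp of the 12 summits, TATAAA was present at mRpL23 and mRpS7 (24.5% of all promoter summit windows hold it) and TAATTA at mRpL24, mRpS26 and mRpS7 (10.6%). GAGAG was present at mRpL23 (9.53%) and Ohler motif 6 at mRpL41 (0.369%). The other 6 motifs were in none of the 12 windows, and they are uncommon in all promoter summit windows. There the shares were 7.13% for ATTTAAAA, 4.12% for the E-box and 1.66% for the DRE. They were 0.983% for the ETS core, 0.369% for the ewg core and 0.246% for Ohler motif 1. With shares this low, their absence from 12 windows does not set these peaks apart. No motif was thus held by more than 3 of the 12.

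The promoters of the family, with or without a peak, often held the E-box. In the stretch from 250 bp upstream to 50 bp downstream of the TSS, CAGCTG was present at 40 of 73 members (54.8%, exact interval 42.7 to 66.5), against 17.7% of protein-coding genes. It was as common in divergent pairs, at 29 of 53 members (54.7%), against 24.4% of protein-coding genes in such pairs. Members with a promoter peak held it at 6 of 12 (50%) and those without at 34 of 61 (55.7%). Its median position in the members was 5 bp downstream of the TSS, against 48 bp upstream over all protein-coding genes. Of the 12 summits, 7 had a CAGCTG within 500 bp, the nearest at 88 to 310 bp, and 45.8% of all promoter summits had one within 500 bp. Distances over all promoter summits are not given here, so this spacing is not read as a trait of these peaks. The DRE was in 15 of 73 member promoters (20.5%), against 9.37% of protein-coding genes, and 2 of these 15 members had a peak. In divergent pairs it was in 8 of 53 members (15.1%), against 16.8% of protein-coding genes, and outside them in 7 of 20 (35%), against 6.22%. The word ATTTAAAA was in 5 of the 12 promoters with a peak (41.7%) and 15 of the 61 without (24.6%), against 14.2% of protein-coding genes.

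Other genes of mitochondrial gene expression are given beside the 13.3% of protein-coding genes with an optimal promoter peak. Of 15 mitochondrial aminoacyl-tRNA synthetase genes, which charge the tRNAs of the organelle, 0 had one, which allows a share of up to 20% by the limit of 3 counts, with an exact interval that ends at 21.8%. Among 12 genes listed as mitochondrial translation factors were GatA, GatB and GatC, which are not translation factors. They encode the complex that makes glutaminyl-tRNA. Of the 12 genes 1 had a promoter peak (8.33%, exact interval 0.211 to 38.5), GatA, with a signal of 190 and the summit nearer to P5cr. No other gene of that list had one. Of 16 genes listed under mitochondrial transcription and RNA handling 3 had one (18.8%, exact interval 4.05 to 45.6). PNPase, which encodes an RNA-degrading polynucleotide phosphorylase, had a signal of 2017 and ranks of 14, 16 and 18 in replicates 1, 2 and 3. The others were clu, whose product acts in the cytoplasm, and RNaseZ, a tRNA 3′ processing gene. The strongest signal was 300 at clu, which had no listed promoter peak in replicate 1, and 168 at RNaseZ. Both tko and bonsai, which encode proteins of the same mitochondrial ribosome under other names, had none. Divergent pairs held 72.6% of the ribosomal protein genes, against 46.7% of the synthetase genes. They held 58.3% of the translation factor list, with its Gat genes, and 81.2% of the transcription and RNA handling list. The motif CAGCTG was in 54.8% of the ribosomal protein gene promoters, against 46.7%, 58.3% and 43.8% in the same 3 lists, so it was about as frequent there.

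The mitochondrial family stood below the genes of the cytoplasmic ribosome, which translates nuclear messages, in its share of promoter peaks. An optimal promoter peak was present at 16.4% of mitochondrial ribosomal protein genes, against 62 of 92 cytoplasmic ones (67.4%, exact interval 56.8 to 76.8), and the exact intervals of these shares do not overlap. Divergent pairs held 72.6% of the mitochondrial genes, against 38 of 92 cytoplasmic ones (41.3%, exact interval 31.1 to 52.1). The motif CAGCTG was in 54.8% of mitochondrial promoters, against 9 of 92 cytoplasmic ones (9.78%, exact interval 4.57 to 17.8). The gene of the tagged protein itself, CG1529, had no optimal summit within 500 bp of a TSS and 1 within 5 kb of its body.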

How the data were processed

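Per the labels and the listings deposited with each sample, the 5 lists of peaks use dm6: 1 per library, 1 from the libraries pooled, and the optimal list thresholded on the irreproducible discovery rate. Chromatin was sheared to 200 to 800 bp, per the labels. The signal of each peak, the −log10 q-value and the summit offset are the authors' values, as deposited. The sources used here do not state the aligner, the peak caller, that threshold or the scaling of signal to the control. Peaks were ordered by signal within a list only. The −log10 q-values, deposited with a ceiling shared by many peaks, were not used to rank. The optimal list has 3921 rows and 3905 distinct intervals, the same as the 3905 strongest pooled ones. Each relaxed list has 30000 rows.

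Genes and TSSs came from Ensembl release 115 (18164 genes without transposons, 23581 TSS positions), and sequence from RefSeq of the same assembly. A peak counted for every gene with a TSS in the window. Shares carry exact Clopper-Pearson 95% intervals, which cover counting error only. Since 1 peak can count for both genes of a pair, genes are not independent. No test was made, since there is a single group and the members and gene lists were chosen with earlier results of these data known. The counts of A and T runs, of E-box positions and by list depth were added after the data were seen. Of the lists, ico, mEFG2, mtRNApol, LRPPRC2, Noa1 and DAP3 matched no gene name. The rule for named genes took members with an optimal summit within 500 bp of a TSS, with the partner, or within 5 kb of the body, members with a strong promoter peak in all 3 libraries, and CG1529. Members with one in 1 or 2 libraries, and genes of the other lists or beside a peak, were named after their values were seen. The partner of 1 member is not reported here. Counting was tested on simulated summits. Analysis used Python 3.11.15, numpy 2.4.6, pandas 2.3.3, scipy 1.17.1 and matplotlib 3.10.9.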

Additional observations from a re-analysis of the deposited data

How the results depend on the processing

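Of 34 alternatives over 7 results, 27 stayed close to the value reported, that is within 1.5 times for a count or within 1 SD between libraries for a share. The 12 genes with an optimal promoter peak became 6 when a peak was given only to the gene of the nearest TSS, and were 9 to 13 with other windows, the strongest 1952 peaks, outermost TSSs or tko and bonsai added. The 34 genes with a peak within 5 kb became 1 when the summit had to lie inside the gene. The 10 genes with a strong promoter peak in all libraries became 22 with the whole relaxed lists. The mean share of 20.1% became 12.3% with 1960 peaks per library, 31.5% with 7842 and 16.9% with a window of 250 bp. The 11 genes with a peak in divergent pairs became 4 when TSSs had to be within 250 bp, an alternative chosen after seeing the data. Each of these follows from a narrower or wider rule. Leaving out each replicate in turn gave 11 genes throughout for the count in the remaining libraries, 19.2% to 21.2% for the mean share and 10 to 11 for the optimal peaks supported by the remaining libraries. No paired analysis was possible because the series has a single group. With 73 genes and 12 peaks the intervals are wide, and read depth is unknown.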
